A study of Mus musculus with 656 samples.

Results

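The genes described here encode the constitutive proteasome, the particle that degrades ubiquitin-tagged proteins in every cell. They were chosen by symbol as the protein-coding genes named Psma, Psmb, Psmc or Psmd and a number, without Psmb8, Psmb9, Psmb10 and Psmb11, which encode inducible or thymus-restricted catalytic subunits. This gave 35 of the 22070 genes of the count table. They comprise 8 genes of the α ring and 7 of the β ring of the core particle, 6 ATPases, 3 other subunits of the base and 8 of the lid of the regulatory particle, and 3 chaperones of base assembly.

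The core particle, called 20S, is a barrel of α and β rings whose β1, β2 and β5 subunits cut peptide bonds, and the α rings gate its entrance. The regulatory particle, called 19S, binds ubiquitin chains, removes them, unfolds the substrate with a ring of ATPases and feeds it into the core. The proteasome has a direct part in NF-κB signalling, because it degrades the IκB inhibitor proteins once the kinase IKKβ has marked them. Transcription of the subunit genes is known to be driven as a group by NRF1, the product of Nfe2l1, through antioxidant response elements in their promoters.

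Transcripts of mouse 3T3 cells, an established line of embryonic fibroblasts, were counted by TagSeq, which reads the 3′ ends of polyadenylated RNA. The study asked how selective inhibition of IKKβ by SC-514 acts on transcription driven by IL-1β or TNF-α. Cells had SC-514 at 0, 25, 50 or 100 µM in the medium for 1 h, after which they were stimulated for 15, 30, 60, 120 or 360 min. IL-1β was used at 1 ng/ml, and the concentration of TNF-α was 10 ng/ml. These 40 groups and an unstimulated group without inhibitor held 4 libraries each. The groups named here are, in this order, libraries labelled IL-1β with 100, 50 or 25 µM SC-514, libraries labelled IL-1β with 0 µM, the corresponding libraries labelled TNF-α, and the unstimulated libraries. No group had inhibitor without a cytokine, and the vehicle is not named, so that SC-514 is compared only within stimulated cells. The labels assign one prefix of the library names to different cytokines in different fields. The stimulus field was followed here, and a library set and its cytokine cannot be told apart. By column name the unstimulated libraries have a prefix of their own, and by title they share that of IL-1β. Comparisons with unstimulated cells therefore carry the same limit. The labels do not state if the 4 libraries of each group are separate cultures, and a p-value therefore reflects only how far these libraries spread.

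The libraries held 928906 to 2469454 counts (median 1282459), apart from 2 shallow ones. These were number 1 of IL-1β 50 µM at 30 min with 12191 counts and number 1 of TNF-α 50 µM at 120 min with 3839 counts. With IL-1β and 100 µM, library number 1 exceeded the rest of its group in detected genes at 120 min (14634) and 360 min (15303). Levels below are scaled CPM, the count of a gene relative to the total of its library. Marker levels are CPM without scaling factors. All 7 fibroblast markers were present, with summed levels of 4990 to 7850 CPM over the libraries other than the shallow ones. Of 12 markers of other cell types in the table, 7 had a median of 0 CPM (Epcam, Cdh1, Krt5, Adgre1, Cd3e, Cdh5 and Adipoq). Tubb3, Lyz2, Cd68, Pecam1 and Ptprc had medians of 8.44, 6.33, 4.31, 4.06 and 0.64 CPM. The 12 together reached 11.9 to 61 CPM. With IL-1β at 360 min they ranged from 13.2 to 61 CPM at 100 µM, against 23 to 27.6 CPM at 0 µM. The NF-κB targets used as a check of stimulation rose at 60 min, for Nfkbia, which encodes IκBα, by 3.50 under IL-1β and 3.94 under TNF-α on the log2 scale.

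In all, 34 of the 35 genes were expressed highly enough to be tested, with unstimulated means of 41.2 to 623 CPM. Psma8, a testis α subunit, was not tested, since it had 1 count in 1 library among 214521490 counts. Of the 35 genes, 16 overlap another annotated gene, and Psmb5, Psmb6 and Psmb7 have named pseudogenes. Whether counting used strand is not given in the sources used here, so reads of such neighbours cannot be told apart from those of the subunit gene. Psmb7 was the gene with the lowest unstimulated level of those tested and has both an overlapping neighbour and a named pseudogene, Psmb7-ps2.

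Promoters were looked up for the antioxidant response element core, written TGACNNNGC, in the 250 bases before each RefSeq gene start on GRCm38.p6, on both strands. Of the 28 subunit genes with a promoter in the table, 5 held a match. Counted by promoter, since some genes have more than 1, this was 5 of 30 (16.7%), against 10.2% of all 32851 promoters. These 5 were Psmb5, Psmb6, Psmc6, Psmd12 and Psmd9. A CCAAT box, written CCAAT, was found in 11 of the 30 (36.7%), against 33.8% of all promoters, and an NF-κB site, GGGA followed by any 2 bases and TTCC, in 0 of the 30, against 1.21% of all promoters. A match describes letters only. Psmb5 and Psmd14 are shown over all 250 bases because they had among the lowest p-values of the SC-514 comparisons below, the first with the core and the second without it, where the capitals are absent. The 4 other matches are shown over the 60 bases that hold them, and capitals mark the match or its reverse complement.
Psmb5, chr14:54617996-54618245, minus strand: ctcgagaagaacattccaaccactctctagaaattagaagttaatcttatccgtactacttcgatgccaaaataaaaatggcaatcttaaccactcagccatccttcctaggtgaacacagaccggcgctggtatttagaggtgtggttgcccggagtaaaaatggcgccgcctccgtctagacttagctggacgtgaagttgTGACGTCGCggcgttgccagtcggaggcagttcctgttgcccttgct
Psmd14, chr2:61711444-61711693, plus strand: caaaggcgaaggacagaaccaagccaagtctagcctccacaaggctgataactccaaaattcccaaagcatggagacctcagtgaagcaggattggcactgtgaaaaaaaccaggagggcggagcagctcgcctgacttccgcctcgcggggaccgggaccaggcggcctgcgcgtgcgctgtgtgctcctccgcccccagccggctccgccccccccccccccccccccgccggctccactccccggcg
Psmb6, chr11:70525297-70525356, plus strand: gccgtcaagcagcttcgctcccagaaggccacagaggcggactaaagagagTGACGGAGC
Psmc6, chr14:45329574-45329633, plus strand: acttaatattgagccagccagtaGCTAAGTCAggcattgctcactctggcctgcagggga
Psmd12, chr11:107479278-107479337, plus strand: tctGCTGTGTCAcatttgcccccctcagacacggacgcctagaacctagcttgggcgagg
Psmd9, chr5:123228130-123228189, plus strand: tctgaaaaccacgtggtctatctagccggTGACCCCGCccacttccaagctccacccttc
The core lay 47 to 39 bases before the start in Psmb5 and 9 to 1 bases before it in Psmb6.

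The first question was how the subunit genes under each cytokine without inhibitor differed from unstimulated cells. Unstimulated cells were not sampled at each time, so the cytokine and the time passed cannot be told apart. With IL-1β, 19 of the 34 genes rose at 360 min and 0 fell, and the median log2 difference from unstimulated cells was 0.20 over the 34, against -0.01 over all 10766 genes tested. At that time 12.3% of all tested genes were higher and 9.4% lower past the threshold of an adjusted p under 0.05 (edgeR quasi-likelihood test with Benjamini-Hochberg adjustment). Changes were few before that. At 15 min 1 gene rose, where 0.121% of all genes were higher and 0.0464% lower. At 30 min 2 rose (0.725% and 0.232%), and at 60 min 1 rose (2.74% and 0.622%). At 120 min 8 rose and 1 fell (8.17% and 4.36%). Without library number 3 of every group the count at 120 min was 5 in place of 9. The counts before 120 min were 0 or 1 without any 1 number, and 10 of the 19 calls at 360 min held under all alternatives tried.

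With TNF-α, at 360 min 8 of the 34 genes rose and 0 fell (3.62% of all genes higher and 1.8% lower), with a median log2 difference of 0.13 over the 34, against 0.00 over all tested genes. At 60 min 1 rose (4.15% and 1.25%), and at 120 min 4 rose (9.14% and 5.11%), a share near that of all genes. With size factors in which the shallow libraries weigh (RLE), the split was 0 higher and 2 lower at 60 min, and 3 higher and 2 lower at 120 min. At 15 min 0 passed by edgeR and 0 by DESeq2 (0.0836% of all genes higher and 0.102% lower), with 10 at an unadjusted p under 0.05. At 30 min 0 passed by either tool (0.557% and 0.102%), with 3 at an unadjusted p under 0.05. The count at 60 min was 2 without number 2 and 0 without number 3 or 4, and that at 120 min was 2 without number 1. The count of 8 at 360 min was 3, 5, 1 and 3 without library numbers 1, 2, 3 and 4, and Psma7 was the only call there that held without each of them. Over the 5 times together, 17 genes passed the F test with IL-1β (background 23.5%) and 10 with TNF-α (19.7%). These were 10 without number 2 or 3 with IL-1β, and 4 and 6 without numbers 3 and 4 with TNF-α. Both cytokines were compared with the same 4 unstimulated libraries, and number 1 of these had the lowest summed level of the core genes, 3585 CPM, against 4154, 3949 and 4184 CPM in numbers 2 to 4. In bulk RNA, fewer cells and less RNA per cell cannot be told apart, and each level is relative to the other transcripts of its library.

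**Figure D1:**
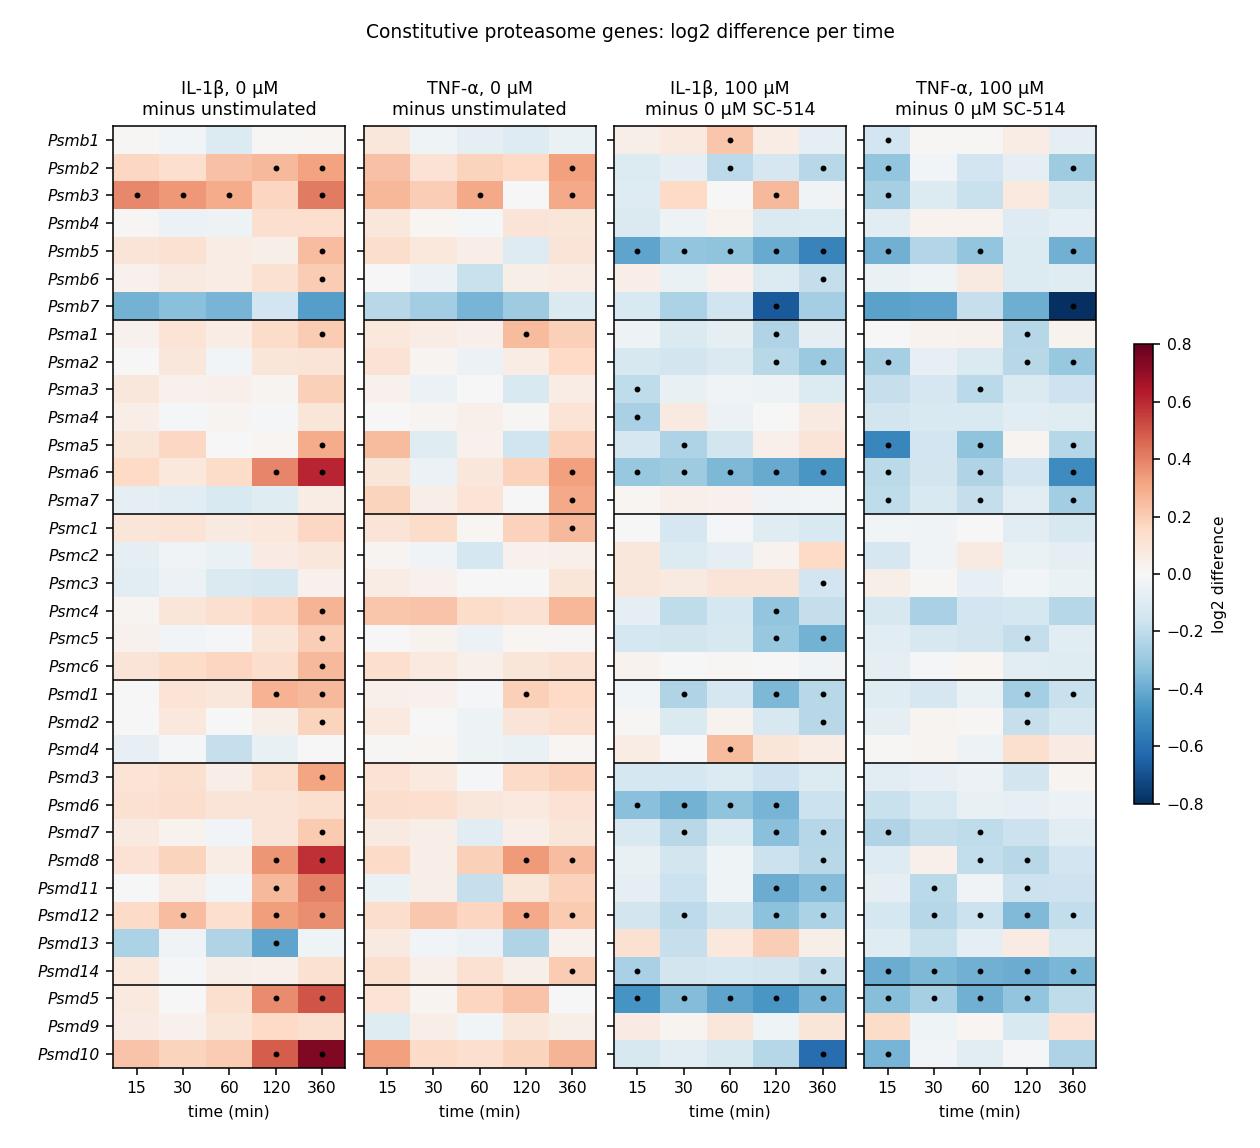
Log2 differences of the 34 tested subunit genes (one line each, grouped from the top as β ring, α ring, ATPases, other base subunits, lid and base chaperones) at each time, with red above 0, blue below 0 and a dot where the adjusted p was under 0.05. Red cells with dots gather at 120 and 360 min in the IL-1β panel, and the SC-514 panels hold 95 dots on blue cells and 3 on red cells.

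Within the lid, 5 of 8 genes rose with IL-1β at 360 min, and 4 of 8 changed at 120 min. Psmd8, a lid subunit, had 272.8, 295.2, 292.0 and 290.0 CPM with IL-1β at 360 min, against 192.0, 220.4, 167.6 and 187.9 CPM in unstimulated cells. The groups did not overlap, and the log2 difference was 0.58 ± 0.07 (SE, n = 4 each), with an adjusted p of 1.34e-11. Over the 5 times together Psmd8 had the smallest p of the 34 genes with IL-1β (4.52e-13 in the edgeR F test). Psmd11, the lid subunit Rpn6, which braces the lid against the core, had 374.8, 392.5, 398.2 and 465.5 CPM, against 302.4, 331.9, 283.8 and 314.5 CPM. All 4 stimulated libraries stood above the unstimulated ones, by 0.40 ± 0.07 on the log2 scale (adjusted p = 4.79e-07). With TNF-α at 360 min Psmd11 had 349.7, 344.5, 356.4 and 347.5 CPM, also above all unstimulated libraries, and its log2 difference of 0.18 had an adjusted p of 0.111. Over the 5 times together its F test with TNF-α passed (0.000267). Psmd14, the lid deubiquitinase Rpn11, had 353.2, 345.5, 325.5 and 372.7 CPM with IL-1β and 357.7, 372.7, 387.5 and 359.9 CPM with TNF-α, against 314.6, 321.5, 309.1 and 337.9 CPM without stimulus. The TNF-α libraries of Psmd14 were all higher, and those with IL-1β overlapped the unstimulated ones, with log2 differences of 0.12 with IL-1β (adjusted p = 0.186) and 0.20 with TNF-α (0.0464, lost without any 1 of the 4 numbers). Psmd12, another lid subunit, rose by 0.33 at 120 min and by 0.37 at 360 min on the log2 scale. Psmd13 went the other way at 120 min, with 90.77, 68.99, 73.35 and 73.66 CPM with IL-1β, against 103.2, 95.94, 98.53 and 112.9 CPM in unstimulated cells. All 4 were lower, and Psmd13 fell by 0.42 on the log2 scale (adjusted p = 0.00117). At 360 min its log2 difference was -0.03, with an adjusted p of 0.863.

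Of the 3 base chaperones, 2 rose with IL-1β at 360 min. Psmd10, known as gankyrin, which holds the ATPase Psmc4 during base assembly, had 84.57, 88.23, 97.89 and 89.43 CPM with IL-1β at 360 min, against 50.51, 58.78, 55.58 and 50.8 CPM in unstimulated cells. These groups were far apart, and the log2 difference of 0.74 ± 0.13 (SE) was the highest among the 34 genes in any comparison with unstimulated cells (adjusted p = 8.08e-07). Psmd5 (S5b) had 176.6, 191.3, 169.8 and 173.8 CPM with IL-1β and 119.2, 133.0, 137.9 and 112.6 CPM with TNF-α at 360 min, against 105.4, 138.3, 128.0 and 131.4 CPM in unstimulated cells. Its level with IL-1β exceeded all other libraries of these groups, while those with TNF-α lay within the unstimulated range. The log2 differences were 0.51 ± 0.09 with IL-1β (adjusted p = 6.88e-07) and 0.00 ± 0.09 with TNF-α (adjusted p = 1). Psmd9 (p27), the chaperone of Psmc3 and Psmc6, had log2 differences of 0.03 to 0.16 with IL-1β and passed at no time.

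In the α ring, at 360 min 3 of 7 tested genes rose with IL-1β, and 2 of 7 rose under TNF-α. Psma6, the α1 subunit, had 231.3, 236.7, 230.9 and 214.0 CPM with IL-1β, 186.9, 170.2, 189.4 and 205.2 CPM with TNF-α, and 140.7, 166.0, 141.5 and 151.6 CPM without stimulus. The 3 groups did not overlap, with IL-1β highest. The log2 differences from unstimulated cells were 0.61 ± 0.08 with IL-1β (adjusted p = 1.57e-10) and 0.33 ± 0.08 with TNF-α (0.00462), and the call with TNF-α was lost without numbers 1, 3 or 4 and with DESeq2. Psma7, the α4 subunit, ran in the opposite order, with 788.8, 755.4, 775.0 and 755.1 CPM with TNF-α, 642.6, 666.3, 675.2 and 610.1 CPM with IL-1β, and 565.0, 628.4, 639.2 and 659.6 CPM without stimulus. Only the TNF-α libraries stood clear of the unstimulated ones. The log2 difference was 0.30 ± 0.05 with TNF-α (adjusted p = 4.62e-06) and 0.06 ± 0.05 with IL-1β (0.48). Psma5, the α5 subunit, had 179.1, 205.3, 185.7 and 198.9 CPM with IL-1β and 173.2, 193.4, 167.0 and 180.4 CPM with TNF-α, against 150.1, 142.6, 168.4 and 166.1 CPM without stimulus. All IL-1β libraries of Psma5 were above the unstimulated range, and it rose with IL-1β by 0.29 on the log2 scale. Its F test over the 5 times with TNF-α gave 0.000405, or 0.0842 and 0.068 without numbers 2 and 4.

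In the β ring, 4 of 7 genes rose with IL-1β at 360 min. Psmb3 and Psmb2, the β3 and β4 subunits without catalytic activity, rose at 360 min with either cytokine, by 0.42 and 0.32 on the log2 scale with IL-1β and by 0.30 and 0.33 with TNF-α. With TNF-α the call of Psmb3 was lost without numbers 1, 2 or 3, with RLE factors and with DESeq2, and that of Psmb2 without number 3. Psmb3 was also the gene that rose at 15, 30 and 60 min with IL-1β, by 0.39, 0.35 and 0.30, and each of these calls was lost without at least 1 library number. The 3 catalytic subunits differed. Psmb5 (β5, chymotrypsin-like) had 131.0, 157.5, 151.4 and 138.7 CPM with IL-1β at 360 min, against 109.7, 127.1, 122.1 and 130.6 CPM in unstimulated cells, a log2 difference of 0.24 ± 0.09. All 4 were higher, by a call of 0.0435 that was lost without numbers 1, 2 or 3. Psmb6 (β1, caspase-like) had 349.1, 360.4, 387.4 and 375.3 CPM, against 295.1, 338.8, 299.8 and 346.7 CPM, a log2 difference of 0.20 ± 0.07 with an adjusted p of 0.0244, and all 4 stimulated libraries were above the unstimulated ones. This call was lost without numbers 1 or 3, with RLE factors, with DESeq2 and without the filter. Psmb7 (β2, trypsin-like) had 19.9, 36.28, 39.32 and 25.07 CPM with IL-1β and 33.92, 50.13, 40.42 and 40.32 CPM without stimulus. These ranges overlapped, and its log2 difference of -0.44 ± 0.17 had an adjusted p of 0.0534.

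Among the 6 ATPases, which unfold the substrate, 3 rose at 360 min under IL-1β and 1 under TNF-α, with log2 differences of 0.03 to 0.27 and 0.01 to 0.26. The 3 were Psmc4, Psmc5 and Psmc6, and of these the call of Psmc6 (0.26) held under all alternatives. Of the other base subunits, the scaffolds Psmd1 and Psmd2 rose with IL-1β by 0.26 and 0.18 on the log2 scale at 360 min. Psmd4, the ubiquitin receptor Rpn10, had 204.0, 191.3, 231.7 and 214.0 CPM with IL-1β and 222.4, 225.6, 199.1 and 205.2 CPM with TNF-α at 360 min, against 184.0, 216.1, 218.1 and 225.8 CPM without stimulus. The 3 groups of Psmd4 lay over each other, with log2 differences of -0.00 and 0.02.

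**Figure D2:**
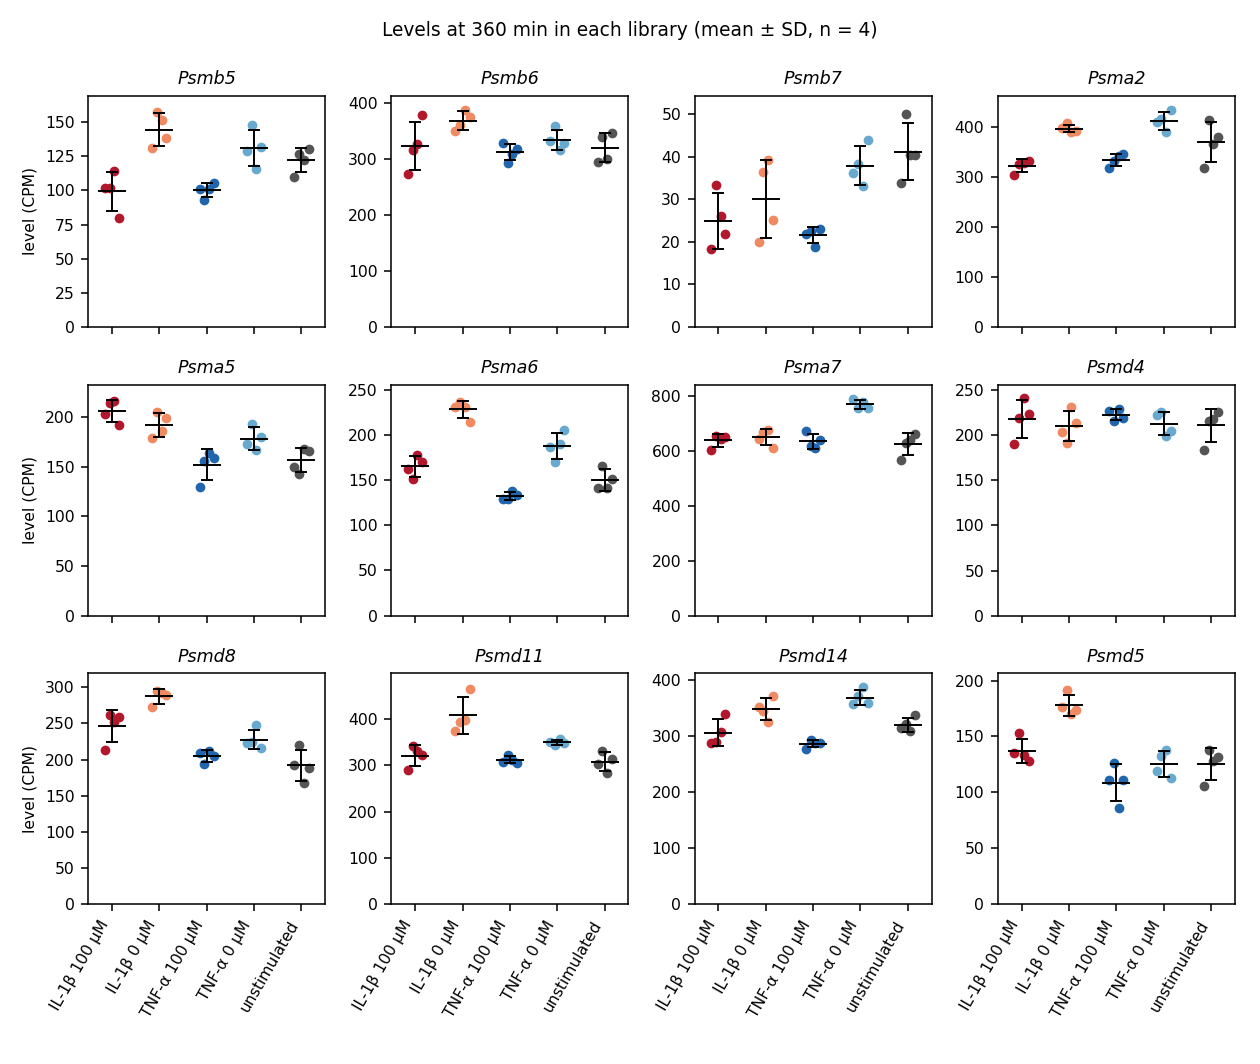
Levels in CPM of 12 subunit genes in each library at 360 min (points) with the mean and SD of 4 libraries (bars), for IL-1β 100 µM, IL-1β 0 µM, TNF-α 100 µM, TNF-α 0 µM and unstimulated cells. Psmb5, Psma2 and Psma6 are lower with 100 µM than with 0 µM SC-514 under both cytokines, while Psmd4 stays at about the same height in all 5 groups.

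The next question was what SC-514 at 100 µM did under each cytokine. The subunit genes fell far more often than they rose. Over the 5 times, 23 of the 34 genes fell at least once with IL-1β and 21 with TNF-α. The 10 comparisons held 95 calls lower and 3 higher. How many of all genes fell at least once was not counted, so these counts have no background, unlike those at single times below. With IL-1β, 0 genes were higher and 7 lower at 15 min, where 11.2% of all genes were higher and 13.5% lower. The counts were 0 and 8 at 30 min (10% and 12.5%), 2 and 5 at 60 min (11.5% and 14.4%), 1 and 13 at 120 min (14.3% and 16.2%), and 0 and 16 at 360 min (13.9% and 15.7%). With TNF-α, 0 were higher at any time, where 8.99%, 7.12%, 8.32%, 11.5% and 11.4% of all genes were higher at 15, 30, 60, 120 and 360 min. The counts lower were 12, 4, 10, 10 and 10, where 13.2%, 10.8%, 13.6%, 15% and 15.4% of all genes were lower. The share of the 34 genes that fell was close to that of all genes at 60 min with IL-1β and at 30 min with TNF-α, and above it in the other 8 comparisons. The split was one-sided, while among all tested genes at 360 min with IL-1β 1492 were higher and 1686 lower. At 360 min the median log2 difference was -0.18 over the 34 genes with IL-1β, against 0.04 over all tested genes, and -0.13 with TNF-α, against 0.02. The 0 µM libraries of these comparisons are those that were set against unstimulated cells above.

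These counts depended on most of the settings tried and on single library numbers. Those without the filter on low counts are given in the last section. With RLE factors the median of all genes with TNF-α at 360 min shifted up by 0.12 on the log2 scale, and the splits became 1 higher and 6 lower at 15 min with IL-1β, and 2 and 5 at 120 min and 2 and 6 at 360 min with TNF-α. DESeq2 gave 3 calls at 30 min and 1 higher and 7 lower at 360 min with IL-1β. Under TNF-α it gave 6, 1, 2, 3 and 5 calls at the 5 times in place of 12, 4, 10, 10 and 10. Without number 1 of IL-1β 100 µM at 120 and 360 min, the libraries with the most detected genes, the count at 360 min was 9 in place of 16. With IL-1β, the count of 8 at 30 min was 5, 3 and 3 without numbers 2, 3 and 4, that of 7 at 60 min was 4 without number 2, and that of 16 at 360 min was 9 without number 1. With TNF-α, 12 at 15 min became 7 without number 2 or 3, 4 at 30 min became 2 without number 2, 3 or 4, and 10 at 60 min became 5, 3, 5 and 6 without numbers 1 to 4. At 120 min 10 became 6 without number 3, and at 360 min 10 became 6 without number 2. Of 143 calls over the 20 comparisons of single times, 57 held under every alternative, 40 of them in the SC-514 comparisons.

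Psmb5, the chymotrypsin-like subunit, was among the most regularly affected genes. At 360 min it had 101.8, 101.8, 114.4 and 79.48 CPM with IL-1β and 100 µM, against 131.0, 157.5, 151.4 and 138.7 CPM with IL-1β and 0 µM. With TNF-α it had 100.8, 93.05, 100.9 and 105.6 CPM with 100 µM, against 128.9, 148.1, 115.6 and 131.7 CPM with 0 µM. In both cases all 4 libraries with inhibitor were below all 4 without. The log2 differences were -0.54 ± 0.10 (SE, adjusted p = 2.01e-06) with IL-1β and -0.39 ± 0.09 (0.000444) with TNF-α, the second lost without number 2 and with DESeq2. Psmb5 fell at all 5 times with IL-1β, by 0.32 to 0.54 on the log2 scale, and at 3 of 5 times with TNF-α. The other catalytic subunits followed it less closely. Psmb7 had 21.89, 22.41, 18.77 and 23.1 CPM with TNF-α and 100 µM at 360 min, against 36.26, 38.27, 33.02 and 43.91 CPM with 0 µM. These ranges were well apart, and the log2 difference of -0.81 ± 0.17 was the lowest of the 34 genes in these 10 comparisons (adjusted p = 0.000102). Psmb6 fell once, at 360 min with IL-1β, by 0.19 on the log2 scale, with levels of 272.2, 315.1, 326.3 and 378.5 CPM, against 349.1, 360.4, 387.4 and 375.3 CPM, and these overlapped. This call held under 4 of 11 alternatives.

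Psma6 led the α ring here as well. It had 162.6, 151.0, 178.3 and 170.3 CPM with IL-1β and 100 µM at 360 min, against 231.3, 236.7, 230.9 and 214.0 CPM with 0 µM, and 128.8, 129.1, 138.0 and 133.9 CPM with TNF-α and 100 µM, against 186.9, 170.2, 189.4 and 205.2 CPM with 0 µM. Neither pair of groups overlapped, with log2 differences of -0.46 ± 0.08 (adjusted p = 1.02e-06) and -0.51 ± 0.08 (7.87e-08). Psma2, the α2 subunit, had 304.4, 325.6, 328.0 and 331.2 CPM with IL-1β and 100 µM, against 397.1, 406.5, 389.9 and 392.0 CPM with 0 µM, and 317.6, 331.3, 340.9 and 345.6 CPM with TNF-α and 100 µM, against 408.5, 415.0, 388.5 and 433.4 CPM with 0 µM. The groups were apart under both cytokines, each with a log2 difference of -0.30 (adjusted p = 4.78e-05 and 2.23e-05). Psma7 had 671.3, 614.8, 609.2 and 638.0 CPM with TNF-α and 100 µM at 360 min, against 788.8, 755.4, 775.0 and 755.1 CPM with 0 µM. It fell with TNF-α at 15, 60 and 360 min, by 0.21, 0.19 and 0.28, while its log2 differences with IL-1β were -0.03 to 0.04. Psma5 fell most at 15 min with TNF-α, where it had 126.2, 124.4, 129.2 and 140.4 CPM with 100 µM, against 156.7, 211.2, 179.3 and 200.0 CPM with 0 µM. The groups were separate, and the log2 difference was -0.52 ± 0.09 (adjusted p = 1.03e-06).

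In the lid, Psmd14, which cuts ubiquitin chains off the substrate, had the smallest p of all 34 genes with TNF-α (F test over 5 times, 4.9e-22). It had 253.6, 254.3, 275.4 and 283.2 CPM with TNF-α and 100 µM at 15 min, against 371.2, 343.9, 336.2 and 352.4 CPM with 0 µM, and at 360 min 277.9, 293.3, 288.6 and 288.1 CPM, against 357.7, 372.7, 387.5 and 359.9 CPM. At both times the groups were well separated. Psmd14 fell by 0.40, 0.36, 0.38, 0.40 and 0.36 on the log2 scale at the 5 times, and each of these calls held under all alternatives. With IL-1β it fell at 15 and 360 min, by 0.26 and 0.19, and the call at 360 min held under 5 of 11 alternatives. Psmd6, a lid subunit, fell with IL-1β at 15, 30, 60 and 120 min, by 0.33, 0.38, 0.32 and 0.37, and passed at no time with TNF-α, where its log2 differences were -0.18 to -0.05. Psmd12 fell at 120 min by 0.33 with IL-1β and by 0.35 with TNF-α. Psmd11 fell by 0.40 at 120 min and 0.34 at 360 min with IL-1β, and its 289.6, 341.4, 330.5 and 322.7 CPM at 360 min lay below the 374.8, 392.5, 398.2 and 465.5 CPM with 0 µM. Psmd13 and Psmd3 passed at no time under either cytokine.

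Psmd5 was the gene with the most calls, lower in 9 of the 10 comparisons, and its F test with IL-1β had the smallest p of the 34 genes (1.68e-15). It had 134.8, 152.7, 133.7 and 127.7 CPM with IL-1β and 100 µM at 360 min, against 176.6, 191.3, 169.8 and 173.8 CPM with 0 µM. All 4 libraries with inhibitor were lower, by a log2 difference of -0.37 ± 0.09 (adjusted p = 0.000275). With TNF-α at 360 min, the comparison without a call, Psmd5 had 111.5, 126.2, 86.23 and 110.8 CPM with 100 µM, against 119.2, 133.0, 137.9 and 112.6 CPM with 0 µM, and these ranges overlapped. The call of Psmd5 at 30 min with TNF-α held under 4 of 11 alternatives. Its calls at 15 and 120 min with TNF-α were lost without number 1, and that at 30 min with IL-1β without number 3. Psmd10 fell by 0.61 on the log2 scale at 360 min with IL-1β (adjusted p = 5.59e-05) and by 0.38 at 15 min with TNF-α. Its call with TNF-α held under 5 of 11 alternatives. Psmd9 passed at no time.

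Of the 6 ATPases, 2 fell at 360 min with IL-1β, Psmc5 and Psmc3, and the call of Psmc3 held under 4 of 11 alternatives. Psmc5 fell by 0.38 on the log2 scale at 360 min with IL-1β (adjusted p = 1.49e-06), with 296.6, 351.9, 319.6 and 333.1 CPM, against 377.2, 386.7, 460.1 and 466.4 CPM with 0 µM. Psmc1, Psmc2 and Psmc6 passed in none of the 10 comparisons, nor did Psmb4 of the β ring. Psmd1 fell by 0.36 at 120 min with IL-1β and by 0.27 with TNF-α. The 3 calls in the other direction were all with IL-1β. Psmd4 had 216.9, 218.1, 219.5 and 230.8 CPM with 100 µM at 60 min, against 178.4, 184.2, 187.6 and 191.3 CPM with 0 µM, and rose by 0.26 on the log2 scale (adjusted p = 0.00618). Psmb1, the β6 subunit, rose by 0.22 at 60 min (0.00126) and Psmb3 by 0.26 at 120 min (0.0135). With TNF-α at the same times Psmd4, Psmb1 and Psmb3 had log2 differences of -0.04, 0.01 and 0.08.

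Summed over their genes, core and regulatory particle were both lower with 100 µM than with 0 µM at 360 min under each cytokine. The 14 tested core genes together had 4097 ± 182 CPM (SD, n = 4) with IL-1β and 100 µM, against 4454 ± 94 CPM with 0 µM, and 3890 ± 104 CPM with TNF-α and 100 µM, against 4413 ± 90.9 CPM with 0 µM. The 17 genes of the regulatory particle had 4705 ± 236 CPM with IL-1β and 100 µM, against 5308 ± 168 CPM with 0 µM, and 4644 ± 82.4 CPM with TNF-α and 100 µM, against 5044 ± 67.3 CPM with 0 µM. In each of these 4 cases all libraries with 100 µM were below all libraries with 0 µM. Unstimulated cells had 3968 ± 276 CPM for the core and 4595 ± 229 CPM for the regulatory particle, close to the levels with cytokine and 100 µM. No test was made on these sums. The fibroblast markers at 360 min summed to 5230 to 6000 CPM with IL-1β and 100 µM, against 5240 to 5530 CPM with 0 µM, and these ranges overlapped. With TNF-α the ranges were apart, at 4990 to 5350 CPM with 100 µM, against 5950 to 6190 CPM with 0 µM. Marker sums lack the scaling factors of the subunit sums. Unstimulated cells had 6840 to 7100 CPM of the markers. Against these cells, 7 of 7 markers fell with IL-1β and 0 µM at 360 min, where 9.4% of all genes were lower. The share of mitochondrial transcripts at 360 min was 0.621% to 0.758% with IL-1β and 100 µM, against 0.439% to 0.641% with 0 µM, and 0.574% to 0.703% with TNF-α and 100 µM, against 0.501% to 0.659% with 0 µM. Their part in the results was not tested.

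**Figure D3:**
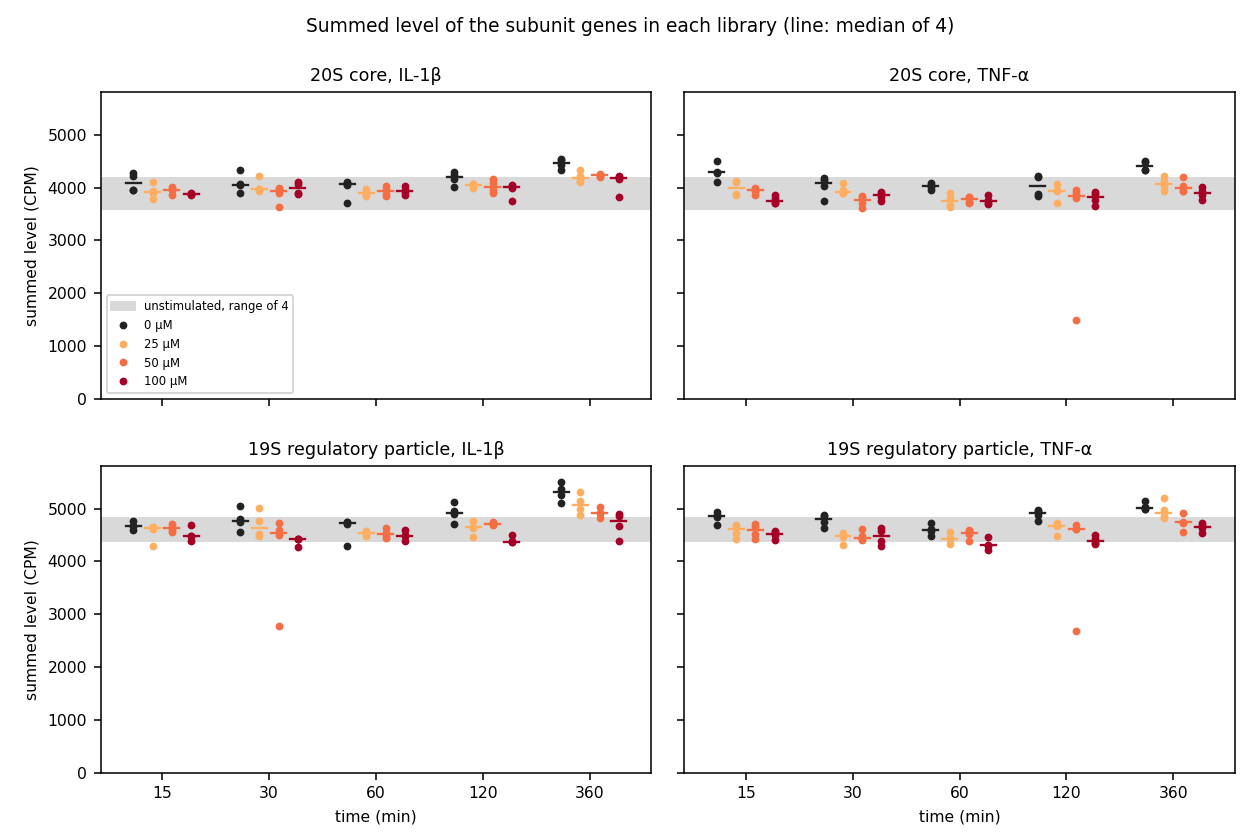
Summed level in CPM of the 14 core genes (top) and 17 genes of the regulatory particle (bottom) in each library over time in minutes, by SC-514 concentration, with a short line at the median of 4 libraries and a grey band for the range of the 4 unstimulated libraries. At 360 min the 0 µM libraries lie above the band in all 4 panels, and the isolated low points at 50 µM are the 2 shallow libraries.

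Lower concentrations of SC-514 were tested over the 5 times together against the same 0 µM libraries. With IL-1β, 9 of the 34 genes passed at 25 µM (background 28.7%), 19 at 50 µM (40%) and 24 at 100 µM (55.3%). With TNF-α, 12 passed at 25 µM (23.8%), 20 at 50 µM (35.9%) and 19 at 100 µM (50.3%). The share of the subunit genes was near the background at 25 µM with IL-1β (26.5%) and at 100 µM with TNF-α (55.9%), and above it otherwise. Leaving out 1 library number gave 15 to 19 genes at 100 µM with TNF-α. Leaving out number 3 gave 4 at 25 µM and 14 at 100 µM with IL-1β, and leaving out number 4 gave 12 at 50 µM with TNF-α. The median over the genes of the median log2 difference over times was -0.04, -0.09 and -0.13 at 25, 50 and 100 µM with IL-1β, and -0.08, -0.12 and -0.13 with TNF-α. For 12 genes with IL-1β and 10 with TNF-α these medians fell in the order of the concentrations.

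At 360 min the mean levels of Psmd14 with TNF-α and of Psmb5 with IL-1β followed the order of the concentrations. Psmd14 averaged 369.4 ± 13.7, 333.7 ± 13.5, 311.6 ± 15.6 and 287.0 ± 6.48 CPM (SD, n = 4 each) at 0, 25, 50 and 100 µM with TNF-α, and Psmb5 averaged 144.7 ± 12.0, 113.4 ± 1.81, 110.7 ± 16.0 and 99.35 ± 14.5 CPM with IL-1β. From 25 µM upwards the steps of Psmb5 were smaller than the larger SD of each pair. Psmd5 averaged 177.9 ± 9.36, 159.2 ± 9.31, 147.7 ± 21.5 and 137.2 ± 10.8 CPM with IL-1β at 360 min, where steps from 25 µM upwards were again smaller than the larger SD of the pair. Psma5 did not follow the concentration. At 15 min with TNF-α it averaged 186.8 ± 24.1, 135.1 ± 8.46, 117.1 ± 14.1 and 130.0 ± 7.16 CPM at 0, 25, 50 and 100 µM, and its log2 differences from 0 µM were -0.47, -0.67 and -0.52, each ± 0.09 (SE). The mean levels at 50 and 100 µM differed by less than the SD at 50 µM. With IL-1β at 30 min the log2 differences of Psma5 were -0.30 ± 0.09, -0.59 ± 0.10 and -0.25 ± 0.09. Psmd3, a lid subunit without a call at 100 µM, had the smallest p of the 34 genes at 25 µM with TNF-α (4.79e-07), with log2 differences of -0.41 to -0.16 at 25 µM and of -0.14 to 0.02 at 100 µM.

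**Figure D4:**
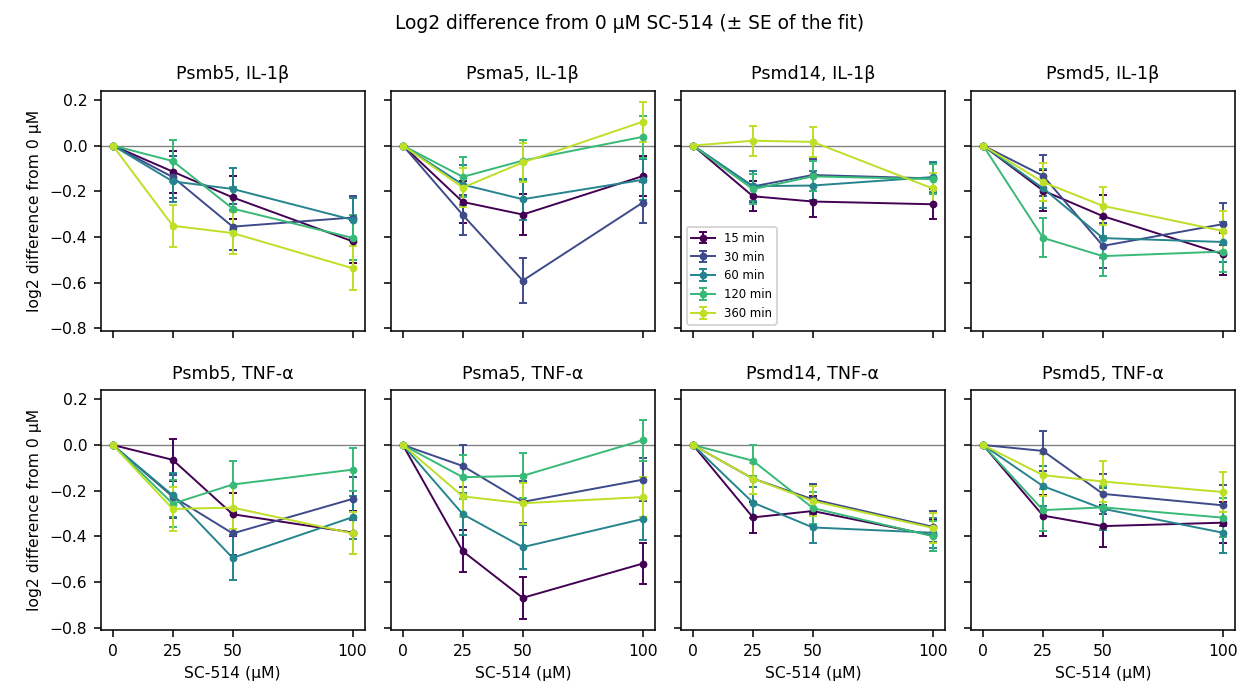
Log2 difference from 0 µM SC-514 (± SE of the fit) against concentration in µM for Psmb5, Psma5, Psmd14 and Psmd5, one line for each time, with IL-1β above and TNF-α below. Psmd14 with TNF-α steps down to between -0.40 and -0.36 at 100 µM at all 5 times, while Psma5 is lowest at 50 µM at 15 and 60 min under both cytokines.

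The cytokines were also compared directly at 0 µM over the 5 times, where 8 of the 34 genes passed (background 9.56%). The share was above that of all genes, but 3 genes passed without number 2, 3 or 4. Psma7 had the smallest p (8.36e-10), with log2 differences of IL-1β minus TNF-α of -0.25, -0.14, -0.23, -0.10 and -0.24 at the 5 times. It was lower with IL-1β throughout, and passed under all alternatives run for F tests, which leave out DESeq2. Psmd5 (0.000127) and Psmd8 (0.00227, or 0.0532 without number 4) differed mainly at 360 min, where they were higher with IL-1β by 0.50 ± 0.09 and 0.34 ± 0.07 on the log2 scale. The difference of the SC-514 response at 100 µM between the cytokines was itself tested, and 2 of 34 genes passed (background 4.68%, a similar share), or 1 without number 2. Psma7 (0.000483) fell with TNF-α and had values near 0 with IL-1β, and Psmd14 (0.00975) had lower values with TNF-α at all 5 times. Without the filter on low counts neither passed (0.208 and 0.423). Psmd14 was also lost without number 1 or 2 and with RLE factors (0.295, 0.256 and 0.0556).

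Genes that work with the proteasome were followed from lists. Nfe2l1 itself had 516.5, 580.5, 503.7 and 526.5 CPM with IL-1β at 360 min, against 311.7, 348.3, 366.3 and 330.6 CPM in unstimulated cells, a log2 difference of 0.65. With 100 µM SC-514 it had 734.0, 783.7, 719.0 and 663.3 CPM, against those 516.5 to 580.5 CPM, and so rose where most subunit genes that changed fell. Nfe2l1 rose at all 5 times with IL-1β, by 0.38 to 0.45, and at 15, 30 and 360 min with TNF-α. These values are of RNA, and a link between Nfe2l1 and the subunit genes was not tested. Of the 5 genes of the list of NRF1, NRF2 and NRF1 processing, 2 rose and 1 fell with 100 µM and IL-1β at 360 min. Of all genes, 13.9% were higher and 15.7% lower there. With TNF-α 1 rose and 1 fell (11.4% and 15.4% of all genes). The medians of the list were 0.12 and 0.18. A list of 5 genes is too short to tell such counts from the shares of all genes. The gene that fell was Vcp, which extracts ubiquitinated proteins, by 0.29 with IL-1β and by 0.16 with TNF-α.

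Of the 8 deubiquitinases and shuttle factors, 4 passed the F test at 100 µM under IL-1β (50%) and 5 under TNF-α (62.5%), where 55.3% and 50.3% of all genes passed, so the list did not stand out by its count, and at 360 min their median log2 difference was -0.10 under each cytokine. Rad23b, a shuttle protein with a ubiquitin-like domain, fell in all 10 comparisons, by 0.17 to 0.40 on the log2 scale. At 360 min it had 240.9, 278.2, 285.9 and 262.1 CPM with IL-1β and 100 µM, against 335.8, 335.6, 346.4 and 353.5 CPM with 0 µM. These did not overlap. Ubqln1 and Ubqln4, of the same kind, fell at 5 and 3 times with IL-1β, while Ubqln2 rose at 360 min by 0.31. Of 5 core assembly chaperones 1 passed under each cytokine (20%, below the share of all genes), Pomp, which seats the β subunits, and it fell at 15, 30, 60 and 120 min by 0.22 to 0.34. Of 5 activators and inhibitors, 3 passed the F test under each cytokine (60%, near the share of all genes), among them Psme3 (PA28γ), which fell by 0.70 at 120 min with IL-1β and by 0.55 with TNF-α.

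Uba1, the ubiquitin-activating enzyme, fell with 100 µM at all 5 times with IL-1β, by 0.20 to 0.36 on the log2 scale, and at 120 and 360 min with TNF-α, by 0.24 and 0.32. Ubb, which encodes ubiquitin, moved the other way with IL-1β. It rose at 15, 30, 60 and 360 min, by 0.37, 0.20, 0.29 and 0.23, and Rps27a, which encodes ubiquitin fused to a ribosomal protein, rose at 30, 60 and 120 min, by 0.20, 0.26 and 0.49. With TNF-α, Ubb rose at 60 min by 0.29, while Rps27a fell at 15, 60 and 360 min, by 0.21, 0.22 and 0.33. Of the 3 immunoproteasome subunits, which replace the catalytic subunits, Psmb10 rose with IL-1β at 360 min by 0.44 and fell with 100 µM there by 0.46, and Psmb9 rose with 100 µM at 360 min by 0.66 with IL-1β and 0.61 with TNF-α. Of the 2 regulatory particle subunits with other names, Sem1 fell by 0.33 and 0.22 at 360 min. Adrm1, a ubiquitin receptor, fell once, by 0.34 at 120 min with IL-1β.

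As a description, the subunit genes tended to vary together over the 41 group means. Over 561 pairs of the 34 genes the median Pearson correlation of the log2 level was 0.319, and 475 pairs were above 0. The median was 0.0278 between these genes and the others among the 9557 genes with the highest mean counts. The other genes were not matched for level. These points share libraries, scaling and the unstimulated and 0 µM groups. Psmd7, a lid subunit, had the highest median correlation with the others, 0.495, and Psmb1 the lowest, -0.0711.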

How the data were processed

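TagSeq libraries of mouse 3T3 cells were analysed from the deposited table of raw counts per Ensembl gene, in which the authors gave 1 column to each library; the 656 sample records are 4 to a library. Reads were aligned with Bowtie2 to GRCm38/mm10, per the submitters' processing notes; how they were counted, with which annotation and strand setting, is not given in the sources used here. Symbols came from GENCODE M21, which matched 21878 of 22070 IDs.

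Counts were fitted in edgeR 4.0.16 (R 4.3.3) with TMM factors and the robust quasi-likelihood test, in 1 model of 41 groups, after filterByExpr, which left 10766 genes. Comparisons were at single times, or over the 5 times by F test, and p-values were adjusted by Benjamini-Hochberg over all tested genes of a comparison with a threshold of 0.05. The pipeline was tested on simulated data. Levels of subunit and list genes are CPM with TMM factors, which were 0.934 to 1.08 in libraries other than the shallow ones. Marker levels and the correlations used library totals without these factors. In libraries other than the shallow ones, 3 counts correspond to 1.18 to 3.41 CPM with TMM factors. Counting error only is covered by such limits.

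Genes named with values for each library were the catalytic subunits, Psmd4, Psmd11 and Psmd14, the 3 with the smallest p in each F test of a stimulus, of 100 µM or between cytokines, and the extremes of single times. Members and lists were chosen with earlier results of these data known. Alternatives were DESeq2 1.42.0 (single times only), RLE factors, no filter, a replicate block, and leaving out library numbers, the shallow libraries or those with many detected genes. No 2 of 246 pairs of libraries within a group held identical counts. Some genes of the lists are not reported here.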

Additional observations from a re-analysis of the deposited data

Results flagged for a closer look

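Dixon's test of the summed levels of core and regulatory particle marked a library apart from the others in 9 of 82 sets of 4 libraries, where chance marks about 1 in 20. For the levels of 12 single genes at 360 min and without stimulus it marked 0 of 60 sets. For the regulatory particle the library apart was the lowest with IL-1β at 0 µM and 60 min (4296 CPM), at 25 µM and 15 min (4301 CPM) and at 100 µM and 30 min (4280 CPM), and the highest with IL-1β at 100 µM and 120 min (4503 CPM). The gap to the nearest library was 0.917, 0.886, 0.922 and 0.880 of the range of the group. For the core it was the lowest with IL-1β at 0 µM and 60 min (3715 CPM, 0.841) and at 100 µM and 360 min (3827 CPM, 0.846). The 2 shallow libraries gave the others, with 2779 CPM (0.881) for the regulatory particle with IL-1β at 50 µM and 30 min, and 2682 CPM (0.958) and 1502 CPM (0.938) for the regulatory particle and the core with TNF-α at 50 µM and 120 min.

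The F test between IL-1β and TNF-α at 0 µM marked 8 genes, with adjusted p-values by edgeR of 8.36e-10 for Psma7, 0.000127 for Psmd5, 0.00227 for Psmd8, 0.0112 for Psma6, 0.0123 for Psmd11, 0.0207 for Psmd10, 0.0288 for Psmb6 and 0.0471 for Psmc3. At 360 min Psma6, Psmd11 and Psmd10 were higher with IL-1β by 0.28, 0.22 and 0.47 on the log2 scale. The test of a difference between cytokines in the response to 100 µM SC-514 marked Psma7 (0.000483) and Psmd14 (0.00975). Library set and cytokine cannot be told apart here.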

How the results depend on the processing

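Counts below are of the 34 genes past the threshold, in the order of times 15, 30, 60, 120 and 360 min where 5 are given. They stand without the share of all genes under the same setting. Leaving out 1 library number from every group gave 0 to 1, 0 to 1, 0 to 1, 5 to 9 and 13 to 17 with IL-1β against unstimulated cells, 0 to 0, 0 to 0, 0 to 2, 2 to 4 and 1 to 5 with TNF-α, 5 to 7, 3 to 9, 4 to 8, 11 to 15 and 9 to 15 for 100 µM SC-514 with IL-1β, and 7 to 10, 2 to 5, 3 to 6, 6 to 9 and 6 to 9 with TNF-α. For the F tests it gave 10 to 12 and 4 to 8 for IL-1β and TNF-α against unstimulated cells, 14 to 22, 14 to 19 and 4 to 10 for 100, 50 and 25 µM with IL-1β, 15 to 19, 12 to 17 and 8 to 13 with TNF-α, 3 to 9 between cytokines and 1 to 3 for the difference of the SC-514 response. DESeq2 gave 0, 0 and 0 at 15, 30 and 60 min and 10 at 360 min with IL-1β against unstimulated cells, 2 and 2 at 120 and 360 min with TNF-α, 3 and 8 for 100 µM at 30 and 360 min with IL-1β, and 6, 1, 2, 3 and 5 with TNF-α. RLE factors gave 1 at 30 min with IL-1β and 2 and 3 at 60 and 360 min with TNF-α against unstimulated cells, 10 for 100 µM at 360 min with IL-1β, 7, 2 and 4 at 15, 30 and 60 min with TNF-α, and 11 in the F test of IL-1β. No filter on low counts gave 1 and 12 at 30 and 360 min with IL-1β and 4 at 360 min with TNF-α against unstimulated cells, 5 for 100 µM at 30 min with IL-1β, 7, 1, 3 and 4 at 15 to 120 min with TNF-α, and in F tests 9 and 6 for IL-1β and TNF-α, 12 and 7 for 50 and 25 µM with TNF-α, 5 between cytokines and 1 for the difference of the response. Without the 2 libraries of many detected genes, 100 µM gave 9 at 360 min with IL-1β and 6 at 60 min with TNF-α. The replicate block gave 2 at 60 min with IL-1β and left the other counts about as they were; the correlation of deviations between libraries of the same number was over 0.1 in every pair in 0 of 20 comparisons, so they were not treated as paired. It was above 0 in every pair in the comparisons of 100 µM with TNF-α, where the lowest pair was 0.0261 to 0.0927. Without the shallow libraries all 30 counts stayed close to those reported. The cause of these changes was not tested. No named difference reversed its sign where it was called. In shallow libraries depth limits every value.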
